A study of Mus musculus with 8 samples.

Results

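Gene expression in the gastrocnemius, a calf muscle made mostly of fast fibres, was compared between AMPKα2 knockout (KO) and wild-type (WT) mice. Only the 4 libraries of this model were used, of the 8 libraries deposited, and the reads at all polyadenylation sites (APSs) of a gene were added together. Of 56483 APSs in the table, 49783 were assigned to 15350 genes, 14575 of these genes had a read in at least 1 of the 4 libraries, and 10537 reached 16 reads in all and were tested. For 28 genes, sites on a chromosome and on a scaffold carried the same symbol and were added together.

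The KO group was 2 adult male AMPKα2-/- mice on the C57BL/6 background, about 8 weeks old, and the WT group was 2 adult male AMPKα2 WT mice, also labelled C57BL/6, whose age is not given. The mutation removed genomic DNA that codes for part of the catalytic domain. WTTS-seq (whole transcriptome termini site sequencing) reads the 3′ ends of polyadenylated RNA, and each library came from 1 mouse. The comparison asks which genes of this muscle differ when the α2 catalytic subunit is lost.

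AMPK is a kinase of 3 subunits that is switched on when ATP falls. In muscle it acts through phosphorylation of metabolic enzymes and of regulators of transcription, and it is known for its part in glucose uptake, fatty acid oxidation, mitochondrial content and autophagy. The α2 subunit, encoded by Prkaa2, is the main catalytic form in muscle fibres, and Prkaa1 encodes α1, the other form.

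The values here are counts of reads at 3′ ends, and a few sites show what was read. In each window below, the last base is the strongest site of the gene and capitals mark the polyadenylation signal AATAAA where it was found. They belong to genes whose counts differed between the groups, with coordinates on GRCm38 and bases from GENCODE transcripts.
Mt2, chr8:94173534-94173563, plus strand: aactgacAATAAAagccgttgacttgatta
Xirp1, chr9:120013755-120013784, minus strand: cccaaaAATAAAcccaaaagagattcccta
Ppp1r3c, chr19:36731736-36731765, minus strand: ctctcacttttagAATAAAtgtgcttggta
Rpl11, chr4:136049947-136049976, minus strand: aaaagctAATAAAattttctcagaaatgca
Dbp, chr7:45709998-45710027, plus strand: cagacaaatacatttatatttttaagaaaa
The first 4 windows hold the signal and the Dbp window holds neither AATAAA nor ATTAAA.

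The libraries held 2552761 (KO 1), 2590535 (KO 2), 3549156 (WT 1) and 2567021 (WT 2) reads. The 10 strongest sites took between 39.9% and 50.3% of each library, and sense reads of protein coding genes took between 33.6% and 41.4%. Levels are given in CPM, counts per 1e6 reads assigned to genes, corrected by TMM factors of 0.744 (KO 1), 1.16 (KO 2), 1.15 (WT 1) and 1.01 (WT 2), so KO 1 stood apart in its scaling. A count of 3 reads per library, taken as the floor, were worth between 0.877 and 1.91 CPM. The Spearman correlation over tested genes was 0.874 between the KO libraries, 0.884 between the WT libraries and between 0.831 and 0.880 across the groups, so KO and WT libraries were not separated by it. All 5 markers of skeletal muscle were abundant in every library (Acta1, skeletal actin, had between 14393 and 20778 reads). In 5 of 5 both KO libraries lay above both WT libraries, against 18.6% of all tested genes. Their median log2 fold change was 0.45, while the satellite cell markers were at or near 0. The part of these marker levels in the results below was not tested.

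The targeted gene was examined first. Paired values below give KO 1 and KO 2, then WT 1 and WT 2 after "against". Prkaa2 had 40 and 71 reads against 87 and 62, which is 26.7 ± 1.72 CPM (SD, n = 2) against 27.4 ± 2.72. The groups overlapped, and the log2 fold change (KO over WT, here and below) was -0.03 with a standard error (SE) of 0.28, at an adjusted p of 0.988 by edgeR's quasi-likelihood test. The strongest of its 7 sites, an exonic site on chromosome 4 at 105075473, had 21, 31, 27 and 24 reads in KO 1, KO 2, WT 1 and WT 2. Whether any of these sites lies within the deleted part was not examined. A 3′ tag outside the deleted part does not report on the deletion, so these reads are not taken as a check of the genotype. Prkaa1 had 10 and 8 reads against 15 and 3, most of them antisense to the gene. Of 14 tested genes for AMPK subunits and their upstream kinases, 0 were called by edgeR (0 at an unadjusted p under 0.05), and the median log2 fold change was 0.06. Prkag3, the γ subunit of glycolytic muscle, had 65.7 and 72.4 CPM against 51.7 and 54.3, at an adjusted p of 0.713.

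Across all genes, 27 were higher and 24 lower in KO muscle at an adjusted p under 0.1, which is 0.256% and 0.228% of the tested genes (0.484% together). Without any adjustment, 504 genes (4.78%) were higher and 381 (3.62%) lower at p under 0.05, 8.4% of the genes tested. In 18.6% of tested genes both KO libraries lay above both WT libraries, and in 20.6% both lay below. An exact permutation test of a single gene cannot go below p = 0.333 with 2 mice against 2, so the calls rest on the model fitted across genes. The higher calls had a median log2 fold change of 1.86, and the lower calls a median of -4.56, or -2.65 with the 6 genes at 0 in KO set to the floor of 3 reads. Of the 24 lower calls, 12 had at most 3 reads in the KO libraries together and 6 had 0, while among the higher calls 4 had at most 3 WT reads and 1 had 0. Leaving out 1 library at a time gave 17 higher and 9 lower genes without KO 1, 59 and 11 without KO 2, 4 and 28 without WT 1, and 51 and 38 without WT 2. Called each time were 12 genes: Cuedc1, Gm33135, Dbp and Mrps23 on the higher side, and Gm10288, Rpl11, Rpl3, Ubb, Abcf1, Mt2, Mir142 and Gtf2h4 on the lower side. Leaving out a library cannot show where reads were placed. As given below, expression and placement of reads cannot be told apart for Cuedc1, Mrps23, Abcf1 and Gtf2h4. The counts of Rpl11 and Gm10288 are uncertain, and copies of Rpl3 were not added. DESeq2 called 54 genes higher and 20 lower, 0.929% and 0.344% of the 5815 genes it gave an adjusted p. It shared 41 genes with edgeR, 80.4% of edgeR's list and 55.4% of its own.

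**Figure D1:**
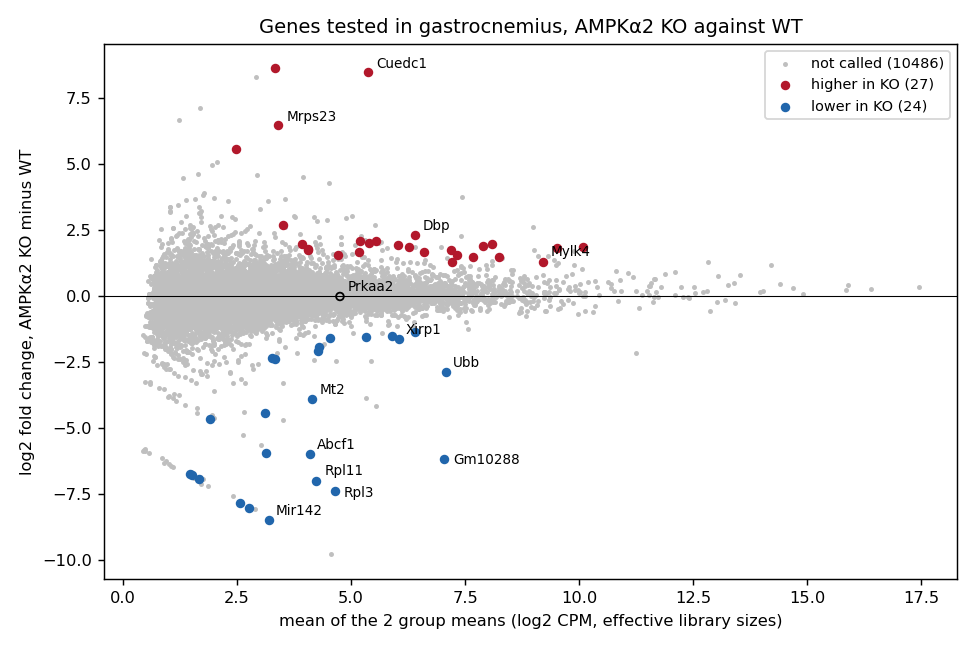
Each point is a tested gene, with the mean level of the groups (log2 CPM) on the x axis and the log2 fold change of KO over WT on the y axis. The 27 genes called higher (red) lie between 1.26 and 8.61, the 24 called lower (blue) between -8.49 and -1.37, and Prkaa2 (open circle) sits at -0.03.

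Dbp and Usp2, genes whose expression follows the circadian clock, were higher in KO muscle. Dbp encodes a PAR bZIP transcription factor that binds D-box elements and carries the daily rhythm from the clock to its target genes. It had 213 and 370 reads against 102 and 58, or 136 and 146 CPM against 29.8 and 27.4. The replicates lay close together and far from the other group, and the log2 fold change was 2.29 (SE 0.25, adjusted p = 0.00235). Usp2 encodes a ubiquitin protease. Its levels were 346 and 260 CPM against 99.4 and 117 (log2 fold change 1.49, SE 0.26, adjusted p = 0.0556). The call for Usp2 was lost when KO 1 (adjusted p = 0.167), WT 1 (0.603) or WT 2 (0.170) was left out.

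The clock list held 17 tested genes, and 1 of them, Dbp, was called. Both KO libraries lay above both WT libraries for 12 of the 17 (70.6%, against 18.6% of all tested genes), 5 were higher at an unadjusted p under 0.05, and the median log2 fold change was 0.65 against -0.005 over all tested genes. Tef, a PAR bZIP factor related to Dbp, had 106 and 140 CPM against 63.7 and 68.5 (log2 fold change 0.90, SE 0.25, adjusted p = 0.281). Bhlhe40, a repressor of the clock's E-box elements, had 21 and 18.9 CPM against 6.72 and 11.8. Per1, a core repressor of the clock, had 15.3 and 8.26 CPM against 5.55 and 3.78, and Npas2, an activator and partner of Bmal1, had 16.6 and 13.8 against 4.97 and 10.4 at sites mostly antisense to it. The adjusted p values of these 3 genes were 0.398, 0.505 and 0.576. Among the other repressors, Per2 had 128 and 180 reads against 87 and 154, nearly all antisense to the gene, and Cry1 had 9 and 14 against 7 and 6. The activator Clock had 1 and 14 reads against 20 and 10, so its KO libraries differed widely, and Nr1d1, which encodes the repressor Rev-erbα, did as well with 4 and 62 reads against 31 and 26. The hour at which the muscles were taken is not given in the sources used here, and its part in these values was not tested.

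Promoters of Usp2 and of clock genes were searched, from 250 bases before to 50 bases after the start, for the E-box CACGTG, which clock activators bind, and for the D-box TTATGTAA, which Dbp and Tef bind, on both strands. Of all 32851 mouse promoters in the RefSeq table (GRCm38.p6), 7.15% held the E-box and 0.938% the D-box. Of 22 promoters searched, of 17 genes, 6 promoters of 5 genes held the E-box (27.3%) and 1 the D-box. Tef held an E-box in each of its 2 promoters, and 1 of the 2 promoters of Per1 held one. Bhlhe41, Ciart and Cry1 also held an E-box, and Per3 held 2 D-boxes. The promoters of the other genes searched, such as Nr1d1, Clock and Npas2, held neither. Promoters of Bhlhe40 and Per2 were not among those searched. The windows of Tef and Per1 are shown with the E-box in capitals, because both genes reached an unadjusted p under 0.05.
Per1, chr11:69098773-69098800, plus strand: cacccaagtcCACGTGcagggatgtgtg
Tef, chr15:81802536-81802563, plus strand: gctgtggctcCACGTGctgcagctggca
Tef, chr15:81811266-81811293, plus strand: cctggcccagCACGTGtctacatcgttt
The windows of Dbp and Usp2 held neither motif, which says only that these letters are not in these windows.

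Of 15 tested genes of the slow fibre program, 0 were called, and in 11 both KO libraries lay above both WT libraries. Slow (type I) fibres contract with their own set of myosin, troponin and tropomyosin forms, and the gastrocnemius holds few of them. Myh7, the slow myosin heavy chain, had 1607 and 2474 reads against 862 and 1136, or 1025 and 973 CPM against 252 and 536. The KO libraries were alike while WT 1 held fewer of them (in CPM) than WT 2, and the log2 fold change was 1.34 (SE 0.35, adjusted p = 0.258). Tnnt1, the slow troponin T, had 366 and 411 CPM against 86.2 and 224. Tpm3, the slow tropomyosin, had 367 and 390 CPM against 112 and 223, and Tnnc1, the slow troponin C, had 24.2 and 27.9 against 9.35 and 14.2. Atp2a2, the calcium pump of slow fibres, had 97.6 and 75.9 CPM against 35.1 and 49.1, and Mybpc1, the slow myosin binding protein C, 569 and 393 against 226 and 264. In each of these 6 genes both KO libraries lay above both WT libraries, and the smallest adjusted p was 0.258.

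Of the 15 slow fibre genes, 8 were higher and 0 lower at an unadjusted p under 0.05, against 4.78% and 3.62% of all tested genes. The 11 without overlap are 73.3% of the list, against 18.6% of all tested genes, and Myl3, Csrp3, Ankrd2 and Pln, named after their values were seen, overlapped between the groups. The median log2 fold change was 0.97, and it was 0.62 without WT 1 and 1.30 without WT 2. The summed level of the list was 3419 and 3338 CPM in KO and 1181 and 2178 in WT. In whole muscle, a different number of fibres or cells of a type and a different amount of RNA in each cannot be told apart. Of 16 tested fast fibre genes, 1 was called, 4 were higher and 0 lower at an unadjusted p under 0.05, and 8 (50%) had both KO libraries above both WT libraries, with a median of 0.23. The called gene was Mylk4, which encodes a myosin light chain kinase. It had 1365 and 2042 reads against 1059 and 799, or 870 and 803 CPM against 310 and 377 (log2 fold change 1.29, SE 0.26, adjusted p = 0.0944). Its reads were spread over 41 sites, and without the strongest site the levels were 631 CPM in KO and 237 in WT. The call was lost with each library left out, at adjusted p values between 0.108 and 0.999. Myh2, the heavy chain of fast oxidative (IIa) fibres, had 3354 and 2443 CPM against 1811 and 1702 (adjusted p = 0.555), and Atp2a1, the fast fibre calcium pump, had 6164 and 3432 against 2892 and 2556 (adjusted p = 0.576).

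**Figure D2:**
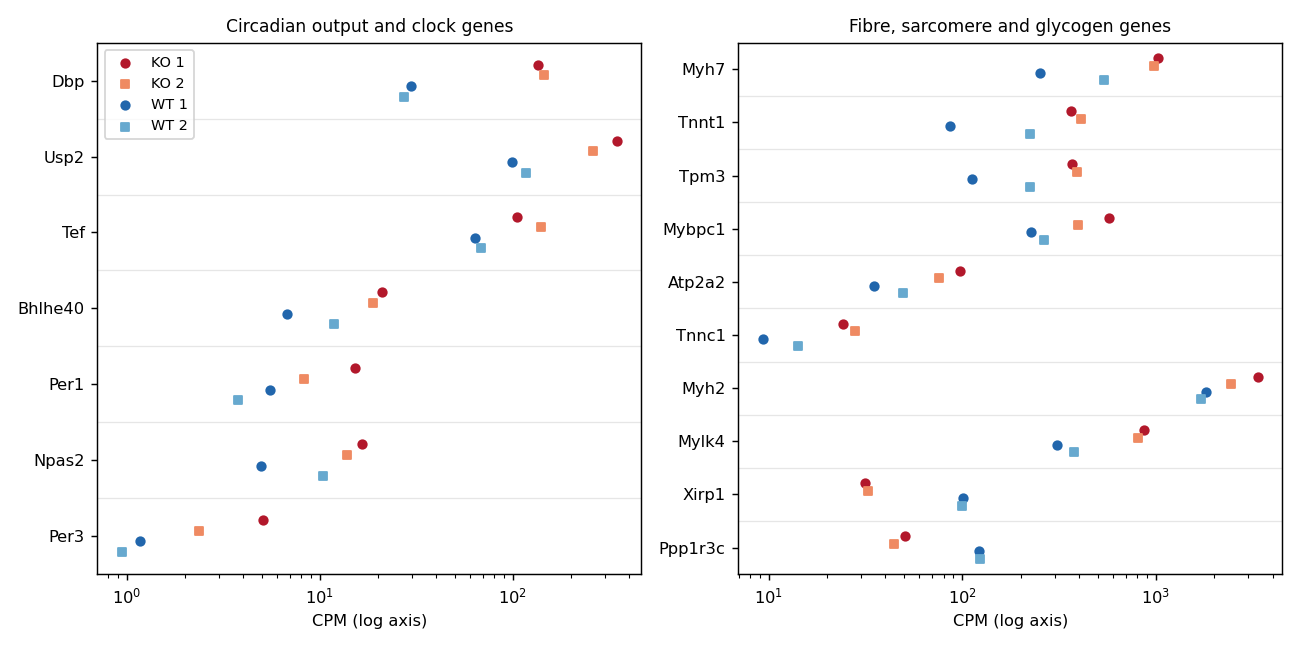
Levels in each library (CPM, log axis) for clock genes on the left and for fibre, sarcomere and glycogen genes on the right, with KO libraries in red and orange and WT libraries in blue. Dbp stands at 136 and 146 CPM in KO against 29.8 and 27.4 in WT, while Xirp1 and Ppp1r3c are lower in both KO libraries.

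Among the giant and M-band proteins of the sarcomere, 1 of 16 tested genes was called. Xirp1 encodes an actin-binding repeat protein of the myotendinous junction and of damaged sarcomeres, and it was lower in KO muscle. It had 49 and 83 reads against 346 and 210, or 31.2 and 32.7 CPM against 101 and 99.2. The log2 fold change was -1.65 (SE 0.25, adjusted p = 0.0226), with a call lost without KO 1 (adjusted p = 0.120) or WT 1 (0.195). The rest of the list mostly lay the other way. Both KO libraries were above both WT libraries for 12 of 16 (75%), against 18.6% of all tested genes. The list's median was 0.48. Lmod2, an actin filament nucleator, had 105 and 114 CPM against 30.4 and 61.9 (adjusted p = 0.258). Klhl30, a Kelch-domain gene of muscle, was called lower with 8.93 and 13.8 CPM against 36.8 and 34 (log2 fold change -1.61, SE 0.32, adjusted p = 0.0944), and each library left out ended that call.

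Glycogen metabolism had 1 call among 18 tested genes. Ppp1r3c encodes PTG, a subunit that brings protein phosphatase 1 to glycogen and so favours glycogen synthesis. It had 79 and 113 reads against 416 and 261, or 50.4 and 44.5 CPM against 122 and 123 (log2 fold change -1.37, SE 0.24, adjusted p = 0.0566). The groups did not overlap, and the call was lost with each library left out, at adjusted p values between 0.136 and 0.353. The difference lay at its strongest site, since the other 5 sites together stood at 15.2 CPM in KO and 17.6 in WT. Ppp1r3a, the glycogen-targeting subunit of striated muscle, had 149 and 101 CPM against 74.8 and 80.3 (adjusted p = 0.508), and Ugp2, which makes UDP-glucose, had 52.3 and 80.7 against 105 and 101 (adjusted p = 0.576).

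The AMPK targets in metabolism held no call among 17 tested genes, with 3 higher and 1 lower at an unadjusted p under 0.05 and a median of -0.01. Ppargc1a (PGC-1α, a coactivator of mitochondrial genes, with 50.3% of its reads at an antisense site) had 56.7 and 36.6 CPM against 25.1 and 25.5, and Tbc1d4 (AS160, a brake on GLUT4 movement to the surface) had 27.4 and 24 against 15.5 and 11.8. Acacb (the acetyl-CoA carboxylase that limits fatty acid entry to mitochondria) had 66.9 and 66.9 CPM against 40.9 and 45.8. Pdk4, the kinase that turns off pyruvate dehydrogenase, had 140 and 104 CPM in KO and 164 and 320 in WT. The adjusted p values were 0.420, 0.431, 0.535 and 0.418. Also without a call were the lists of fatty acid oxidation (30 tested genes, median 0.13), mitochondrial biogenesis (15, 0.08), complex I (35, -0.15), complexes II and III (13, 0.04), complex IV (14, -0.09), ATP synthase (17, -0.15) and the TCA cycle (29, 0.21). Of the 35 complex I genes, 15 (42.9%) had both KO libraries below both WT libraries, against 20.6% of all tested genes, and 0 reached an unadjusted p under 0.05. Both KO libraries lay above both WT libraries for 11 of the 29 TCA genes (37.9%, with 4 higher and 2 lower at an unadjusted p under 0.05), 10 of the 30 fatty acid oxidation genes (33.3%) and 7 of the 17 AMPK targets (41.2%), against 18.6% of all tested genes. In glycolysis, with 0 calls among 18 genes, Pkm (pyruvate kinase) had 260 and 205 CPM against 112 and 137, and Ldha (lactate dehydrogenase A) had 895 and 640 against 1218 and 1253, at adjusted p values of 0.285 and 0.544.

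In the list of muscle growth and myogenic factors, 0 of 34 tested genes were called. Mstn (myostatin, an inhibitor of muscle growth) had 46.5 and 69.2 CPM in KO against 31 and 27.4 in WT, and Igf1 (a growth factor that opposes it) had 30.6 and 27.1 against 46.5 and 57.6. The groups overlapped in neither gene, and the adjusted p values were 0.312 and 0.378.

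**Figure D3:**
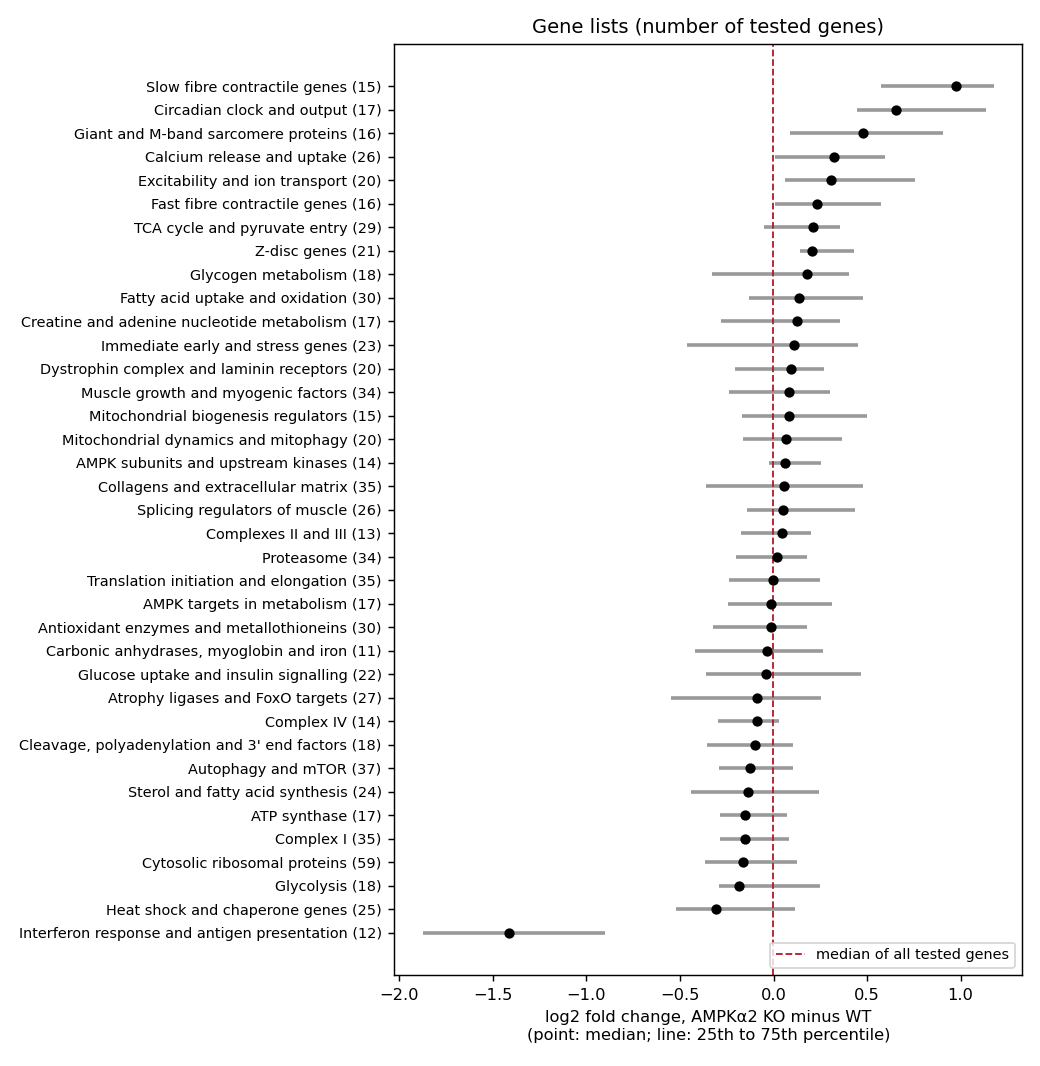
Median log2 fold change of KO over WT (points) and the 25th to 75th percentile (lines) for each gene list, with the number of tested genes in parentheses and the median of all tested genes as a dashed line. Slow fibre genes have the highest median (0.97), followed by the clock (0.65), and interferon and antigen presentation genes the lowest (-1.42).

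Ubb and the metallothionein Mt2 were lower in KO muscle. Ubb, which encodes polyubiquitin B, had 58 and 69 reads against 700 and 570, or 37 and 27.1 CPM against 205 and 269. The log2 fold change was -2.89 (SE 0.29, adjusted p = 0.00141), and 95.1% of the reads of all libraries together lay at its strongest site. That site held 60.3% and 72.5% of the reads of KO 1 and KO 2, against 97.4% and 98.4% in WT 1 and WT 2. The other sites of Ubb lay the other way, with 11.1 CPM in KO and 4.76 in WT. Mt2, a metallothionein that binds zinc and copper, had 3 and 6 reads against 128 and 62, or 1.91 and 2.36 CPM against 37.4 and 29.3 (log2 fold change -3.91, SE 0.41, adjusted p = 0.00212). Its neighbour on chromosome 8, Mt1, had 18 and 16 reads against 139 and 50 and stayed short of a call (log2 fold change -1.91, SE 0.41, adjusted p = 0.124). In both metallothioneins the KO libraries lay below the WT libraries.

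Metallothionein genes are switched on by the factor MTF1 through metal response elements. The core TGCACNC or TGCGCNC, searched on both strands, stood 3 times in the promoter of Mt1 and 4 times in that of Mt2, and 25.7% of all promoters held at least 1 match. The match farthest upstream is shown for each gene in capitals, because the KO libraries lay below the WT libraries in both.
Mt1, chr8:94179056-94179083, plus strand: ggtcccgctgTGCACACtggcgctccag
Mt2, chr8:94172385-94172412, plus strand: gcatcgcctcTGCACCCggcccctcggg

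The heat shock and chaperone list had 1 call, higher, among 25 tested genes, of which 9 had a positive and 16 a negative log2 fold change. Hspb7, a small heat shock protein of heart and muscle sarcomeres, had 197 and 427 reads against 174 and 88, or 126 and 168 CPM against 50.9 and 41.6 (log2 fold change 1.67, SE 0.26, adjusted p = 0.0270). Its call was lost without KO 2 (adjusted p = 0.106), WT 1 (0.206) or WT 2 (0.164). The list's median was -0.31. Both KO libraries lay below both WT libraries for 11 of 25 genes (44.0%), against 20.6% of all tested genes. Hsph1 (an HSP110 chaperone) had 8.93 and 9.84 CPM against 26 and 15.6, and Dnaja1 (an HSP40 cochaperone) had 5.1 and 4.33 against 12 and 9.92, at adjusted p values of 0.378 and 0.429. Dusp26, a phosphatase of MAP kinases, was lower with 12 and 18 reads against 100 and 72 (log2 fold change -2.10, SE 0.33, adjusted p = 0.0270). Sec61a1, the pore of the endoplasmic reticulum translocon, was lower with 5 and 8 reads against 57 and 37 (log2 fold change -2.41, SE 0.42, adjusted p = 0.0566). Both calls were lost with each library left out.

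Genes of leukocytes and genes induced by interferon were among the lower calls. Mir142, the host of a microRNA found throughout blood cells, had 0 and 0 reads against 83 and 26, which is at least 11.8-fold lower against the floor of 3 reads per library (adjusted p = 0.0120). Its mature forms are given from RefSeq (GRCm38.p6) with the seed, bases 2 to 8, in capitals, because both of its sites were empty in KO.
mmu-miR-142a-5p, chr11:87756867-87756887, plus strand: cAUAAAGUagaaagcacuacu
mmu-miR-142a-3p, chr11:87756903-87756925, plus strand: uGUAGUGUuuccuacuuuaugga
The stronger Mir142 site, downstream at 87757271, had 52 and 18 WT reads, and the other had 31 and 8. The 3′ end libraries count polyadenylated RNA, so these values are not levels of the mature microRNA.

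Itgal, the αL integrin of leukocytes, had 1 and 2 reads against 77 and 23 at an intronic site, a ratio of 24.7 (95% counting interval 8.22 to 122) at an adjusted p of 0.0226. Cd79b, a chain of the B cell receptor complex, had 0 and 1 reads against 90 and 18, a ratio of 80.1 (14.1 to 3194, adjusted p = 0.0566). S100a8, a calcium-binding protein of neutrophils, had 0 and 0 reads against 21 and 14, at least 4.12-fold lower (adjusted p = 0.0637). Blnk, an adaptor of B cell receptor signalling, had 4 and 9 reads against 46 and 40 (log2 fold change -2.34, SE 0.46, adjusted p = 0.0813). These groups did not overlap, and WT 1 held more Itgal and Cd79b reads than WT 2. Mir142 kept its call with each library left out, Blnk lost it each time and with sense sites alone (log2 fold change -1.63), Itgal and Cd79b lost it without KO 1, KO 2 or WT 1, and S100a8 without KO 1 or KO 2, while it had too few reads to be tested without WT 1.

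Another 3 lists, of leukocyte genes, were drawn up after these values had been seen. Their called members are among the lower calls already named above, so they are not further calls and the lists are a description. Of 15 tested pan-leukocyte genes, 2 were called, both lower. For 12 (80.0%) both KO libraries lay below both WT libraries, against 20.6% of all tested genes. The summed level of the list was 65 and 46.8 CPM in KO and 215 and 108 in WT. Ptprc, which encodes CD45, had 4 and 4 reads against 60 and 14. Of 8 tested B and T cell genes, 2 were called lower. For 7 (87.5%) both KO libraries lay below both WT libraries, against the same 20.6%. The list's summed levels were 43.4 and 22.4 CPM against 110 and 66.6. Igk, the κ light chain locus, had 43 and 34 reads against 129 and 61. Cd22, a receptor of B cells, was at 0 in both KO libraries and had 21 and 4 WT reads. Of 18 tested tissue macrophage genes, 0 were called (0 at an unadjusted p under 0.05), with summed levels of 290 and 245 CPM against 314 and 292. Csf1r, the macrophage growth factor receptor, had 24.2 and 18.5 CPM against 17.2 and 22.2. The part of the leukocyte genes in the interferon values below was not tested.

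The interferon and antigen presentation list had 12 tested genes. Of these, 1 was called lower, against 0.228% of all tested genes. At an unadjusted p under 0.05, 6 were lower and 0 higher, against 3.62% and 4.78% of all tested genes. For 9 (75%) both KO libraries lay below both WT libraries, against 20.6% of all tested genes. The list's median was -1.42. Bst2 (tetherin, which holds enveloped viruses at the membrane) was the called gene, with 8 and 27 reads against 107 and 67, or 5.1 and 10.6 CPM against 31.3 and 31.6 (log2 fold change -1.93, SE 0.37, adjusted p = 0.0797). Leaving out KO 1, WT 1 or WT 2 ended that call. B2m, the light chain of MHC class I, had 45.9 and 31.9 CPM against 69.9 and 78.4 (adjusted p = 0.312). Irf7, a transcription factor of the interferon response, had 4 and 7 reads against 22 and 29, and Ifit1, an antiviral RNA-binding protein, had 0 and 3 against 14 and 17. The adjusted p values were 0.326 and 0.313. Ifi27l2a, an interferon-inducible gene outside the list, was called lower with 29.3 and 32.3 CPM against 107 and 71.8 (log2 fold change -1.53, SE 0.28, adjusted p = 0.0691), a call lost without KO 1 (adjusted p = 0.268), KO 2 (0.149) or WT 1 (0.613).

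**Figure D4:**
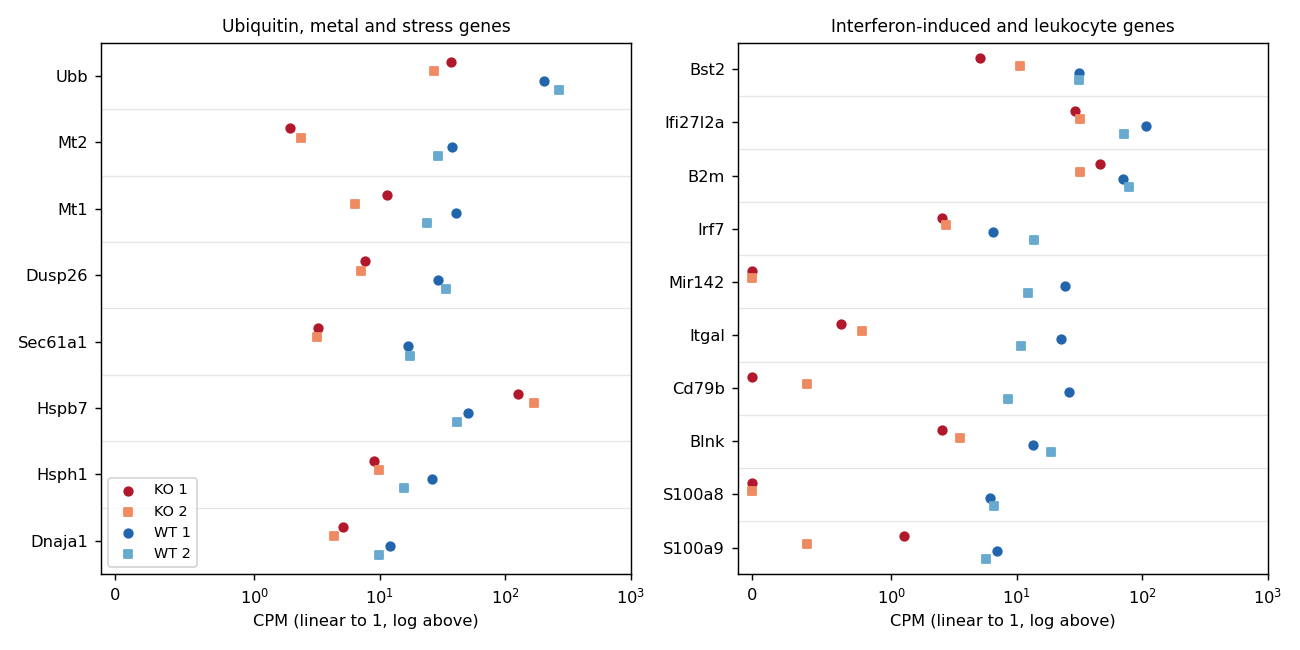
Levels in each library (CPM, linear to 1 and logarithmic above) for ubiquitin, metal and stress genes on the left and for interferon-induced and leukocyte genes on the right, with KO libraries in red and orange and WT libraries in blue. Hspb7 is the gene of the left panel that is higher in KO, and Mir142 and S100a8 lie at 0 in both KO libraries.

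A group of lower calls concerned genes with close copies elsewhere in the genome. Rpl11, a protein of the large ribosomal subunit on chromosome 4 (site at 136049947), had 0 and 1 reads against 134 and 75, a ratio of 155 (95% counting interval 27.5 to 6154, adjusted p = 0.000607). Gm10288, a processed copy of it on chromosome 3 (site at 146838777), had 9 and 5 reads against 953 and 505 (log2 fold change -6.17, SE 0.41, adjusted p = 0.00012). Gm10036, another processed copy, went the other way, with 763 and 958 reads against 363 and 239 (log2 fold change 1.98, SE 0.26, adjusted p = 0.0109), a call lost without WT 1 (adjusted p = 0.209). The last 150 bases of the annotated Gm10288 transcript stood unchanged in Rpl11. The transcript of Gm10036 ends 3 bases sooner, and over the 147 bases before its end it differed at 1. The last 26 of these 147 bases are shown for the identical pair, with no part singled out.
Rpl11, chr4:136049990-136050015, minus strand: acgatggaatcatccttcctggaaaa
Gm10288, chr3:146838814-146838839, minus strand: acgatggaatcatccttcctggaaaa
Gm10036 differs from this stretch at 1 base. The strongest sites lie 43 (Rpl11) and 37 (Gm10288) bases beyond this stretch, outside the bases compared, and whether reads there can be told apart was not tested. Each copy's own count is uncertain. Added together, the 3 copies had 772 and 964 reads against 1450 and 819, or 436 ± 79.9 CPM (SD, n = 2) against 405 ± 26.2, a ratio of 1.08, and the groups overlapped.

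Rpl3, another protein of the large subunit that has many processed copies, had 1 and 0 reads against 202 and 86 at its single site on chromosome 15, a ratio of 214 (95% counting interval 38.1 to 8470, adjusted p = 0.000607). Copies of Rpl3 were not added here. Of 59 tested ribosomal protein genes, only these 2 were called, 2 were higher and 4 lower at an unadjusted p under 0.05, both calls included, and the median was -0.17. Rpl38 had 10.8 and 7.08 CPM against 26.3 and 19.8, and Rps4x had 38.9 and 37.4 against 65.2 and 60.4, at adjusted p values of 0.255 and 0.427.

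Counts on scaffolds, unplaced or alternative sequences of the assembly, also moved between copies. Cuedc1, a gene of unknown role with a ubiquitin-binding CUE domain, was counted on a scaffold only, with 100 and 256 reads against 1 and 0, a ratio of 480 (95% counting interval 85.6 to 19002, adjusted p = 0.00012). Mrps23, a protein of the mitochondrial ribosome on the same scaffold, had 32 and 54 reads against 0 and 1, a ratio of 116 (20.3 to 4630, adjusted p = 0.00236). Neither gene had a read at a chromosomal site in the table. For Fndc5, the precursor of irisin, both places were listed: the site on chromosome 4 had 0 and 0 reads against 266 and 185, and the scaffold had 110 and 172 against 1 and 1. Added together, Fndc5 had 70.1 and 67.7 CPM against 78 and 87.8 (log2 fold change -0.27, SE 0.24, adjusted p = 0.806). Kif1c, a kinesin, had 1 and 0 chromosomal reads against 108 and 39, 39 and 68 scaffold reads against 4 and 0, and a log2 fold change of 0.01 for the sum. Dynll2, a dynein light chain, had 0 and 0 chromosomal reads against 24 and 18 and 13 and 31 scaffold reads against 1 and 0. Its scaffold is the one that holds Cuedc1 and Mrps23, and its sum had a log2 fold change of 0.41 (SE 0.41, adjusted p = 0.837). With chromosomal sites alone, Fndc5, Kif1c and Dynll2 were all called lower (adjusted p = 0.000102, 0.00437 and 0.0333). All 4 mice carry the label C57BL/6, and whether KO and WT mice differed in genomic sequence at these places was not tested, so expression and placement of reads cannot be told apart for Cuedc1 and Mrps23.

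**Figure D5:**
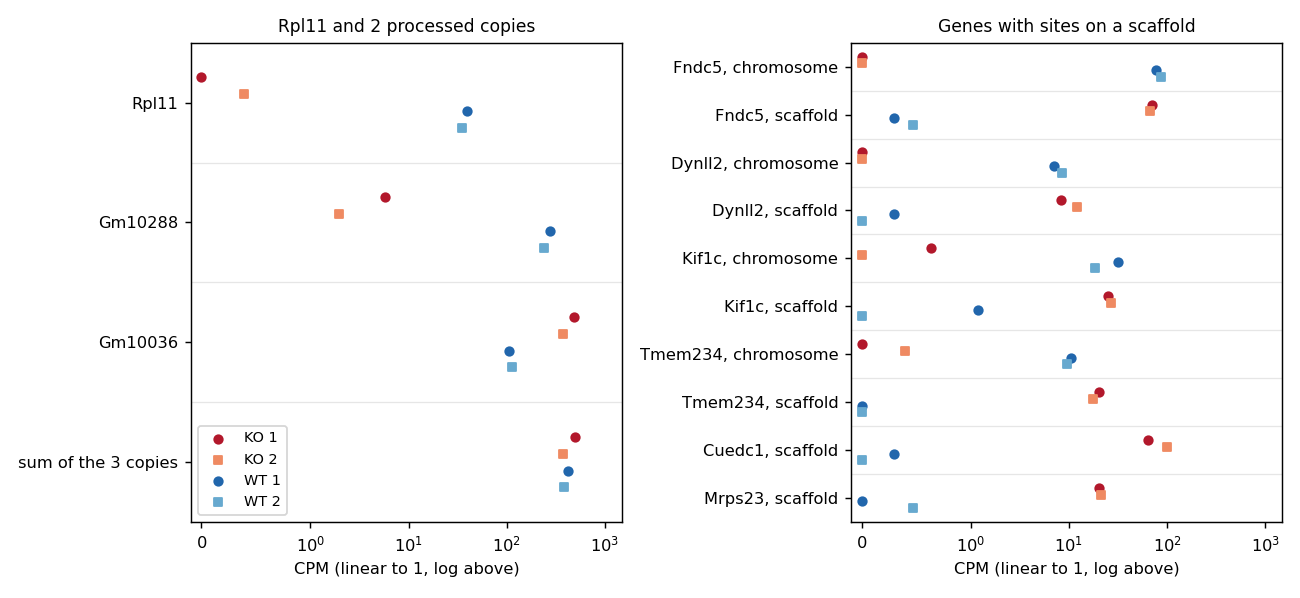
Levels in each library (CPM, linear to 1 and logarithmic above) for Rpl11, its copies and their sum on the left, and for chromosomal and scaffold sites of the same genes on the right, with KO libraries in red and orange and WT libraries in blue. The sum of the Rpl11 copies overlaps between the groups, and the chromosomal and scaffold sites of Fndc5, Dynll2, Kif1c and Tmem234 lie in opposite directions.

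On chromosome 17, 5 lower calls lay within 1.29 Mb, a stretch taken here from the first to the last of them, between 35656385 and 36949290 on GRCm38. Abcf1, an ATPase that takes part in translation initiation, had 0 and 2 reads against 127 and 64, a ratio of 70.9 (95% counting interval 19.4 to 589, adjusted p = 0.00141). Gtf2h4, a subunit of the general transcription factor TFIIH, had 0 and 0 reads against 36 and 28 and was at least 7.68-fold lower (adjusted p = 0.0170). Ppp1r11, an inhibitor of protein phosphatase 1, had 0 and 0 against 29 and 40 and was at least 8.85-fold lower (adjusted p = 0.0278). The other two were Gnl1, a GTP-binding protein, with 0 and 0 reads against 17 and 13 and at least 3.59-fold lower, and Vars2, the mitochondrial valyl-tRNA synthetase, with 0 and 1 against 29 and 13, a ratio of 31.2 (5.30 to 1260). This stretch of the table held 14 genes with a read, the 5 calls that define it included. Of these 14, 13 had at most 3 reads in the KO libraries together. The exception was the pseudogene Gm9840, with 9 and 17 against 21 and 21. Among all tested genes, 137 (1.30%) had so few KO reads. That share is no measure for the stretch, because the 14 include genes with too few reads to be tested. Flot1, with 0 and 0 reads against 4 and 0, is an example. Ppp1r10 (0 and 0 against 10 and 5) and Dhx16 (0 and 1 against 4 and 4) were among those 13. All sites in the stretch, those of no gene included, had 56 and 50 reads against 340 and 222. The same length before it had 0 and 0 reads against 16 and 7. The same length after it went the other way, with 25 and 33 against 20 and 16. Whether KO and WT mice differed in genomic sequence in the stretch, or reads were placed elsewhere, was not tested. Expression and placement of reads therefore cannot be told apart for the genes of this stretch either. Vars2 and Ppp1r11 lost their calls without KO 1 or KO 2, and Gnl1 without KO 1, KO 2 or WT 2. Without WT 1, Vars2 and Gnl1 had too few reads to be tested.

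Higher calls often rested on 1 site outside the 3′ end of the gene. The strongest site of 10 of the 27 higher calls (37.0%) was antisense to its gene, against 0 of the 24 lower calls and 10.3% of all tested genes. It lay in an exon or within 2000 bases downstream for 9 of the 27 (33.3%), for 22 of the 24 lower calls (91.7%) and for 78.9% of tested genes. Reads antisense to a gene may belong to another transcript, so these calls are uncertain as calls of the named gene. Ripk4 (antisense, 190 and 303 reads against 107 and 75), Prss47 (antisense, 714 and 739 against 351 and 208), Gulp1 (intronic, 337 and 592 against 194 and 169), Brinp2 (intronic, 153 and 276 against 73 and 72), Unc5b (intronic, 104 and 131 against 56 and 24) and Foxn4 (intronic, 114 and 161 against 70 and 27) are of this kind. Their log2 fold changes lay between 1.72 and 2.06, and without WT 1 each lost its call. Prss47 also lost it without WT 2, Brinp2 without KO 2, and Unc5b and Foxn4 without KO 1 or WT 2. Prkca, the kinase PKCα, had 3346 and 3219 reads against 1169 and 1265 (log2 fold change 1.86, SE 0.36, adjusted p = 0.0944). Its strongest site was antisense, the other sites together stood at 24.7 CPM in KO and 36.4 in WT, and the call was lost without KO 1, WT 1 or WT 2.

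Inmt, which methylates indole amines, had 30 and 74 reads against 22 and 13 at an exonic site (log2 fold change 1.95, SE 0.37, adjusted p = 0.0778), with the call lost for each library left out. Snord93, a small nucleolar RNA, had 31 and 50 reads against 12 and 5, and Snord13 had 476 and 444 against 286 and 168 (adjusted p = 0.0245 and 0.0767). Gm33135, a long noncoding RNA on the X chromosome, had 30 and 54 reads against 0 and 0 and was at least 17.6-fold higher (adjusted p = 0.00212), and AI450353, another, had 15 and 31 against 0 and 1, a ratio of 62 (95% counting interval 10.6 to 2501, adjusted p = 0.0226). Cbx7, a Polycomb protein, was called lower with 0 and 0 reads against 18 and 13, at least 3.69-fold lower (adjusted p = 0.0797). The calls of AI450353 and Snord93 were lost without KO 1, KO 2 or WT 1. Snord13 lost its call without KO 1, WT 1 or WT 2. Cbx7 lost its call without KO 1, KO 2 or WT 2, and had too few reads to be tested without WT 1.

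The lists without a call covered most of the muscle's other functions. Both KO libraries lay above both WT libraries for 9 of 21 Z-disc genes (42.9%, median 0.21), 13 of 26 calcium handling genes (50%, median 0.33, with 5 higher and 0 lower at an unadjusted p under 0.05) and 6 of 20 ion transport genes (30%, median 0.31), against 18.6% of all tested genes. The other lists, with the number of tested genes and the median, were the dystrophin complex (20, 0.09), glucose uptake and insulin signalling (22, -0.04), mitochondrial dynamics (20, 0.07), creatine and nucleotide metabolism (17, 0.13), translation (35, -0.0036), proteasome (34, 0.02), autophagy and mTOR (37, -0.13), immediate early and stress genes (23, 0.11), iron and carbonic anhydrases (11, -0.03), sterol and fatty acid synthesis (24, -0.14), matrix (35, 0.05), 3′ end factors (18, -0.10) and splicing regulators (26, 0.05). The atrophy list (27, -0.09) held the calls for Ubb and Mt2, and the antioxidant list (30, -0.02) that for Mt2. At an unadjusted p under 0.05, calls included, 1 atrophy gene was higher and 4 lower. In the antioxidant list 1 was higher and 5 lower, against 4.78% and 3.62% of all tested genes. Tcap, the titin cap of the Z-disc, had 2355 and 2354 CPM against 1262 and 1215, and Slc2a1, the glucose transporter GLUT1, had 64.4 and 21.6 against 15.5 and 12.7, mostly at an antisense site, at adjusted p values of 0.312 and 0.427. Timp1, an inhibitor of matrix proteases, had 5.74 and 3.15 CPM against 12.6 and 13.7 (adjusted p = 0.286). Marker lists of endothelium, smooth muscle, adipocytes, red cells and tendon held no gene at an unadjusted p under 0.05. Of 3 fibroblast markers, 1 was higher at that p, 2 had both KO libraries above both WT libraries and the median was 0.34. Of 2 neutrophil markers both were lower, with summed levels of 1.28 and 0.393 CPM against 13.2 and 12.3. The T and B cell markers had 0 and 0 reads in sum against 23 and 1, and the 1 tested was lower at that p.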

How the data were processed

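Gastrocnemius RNA of 4 mice was profiled by WTTS-seq, 1 library per mouse. According to the study's methods, the authors filtered the reads with the FASTX Toolkit, trimmed leading Ts, mapped reads of at least 16 bases with TMAP to the mouse genome (GRCm38.p5 per the labels), clustered read ends within 24 bases into APSs and assigned these to genes with Cuffcompare. The deposited values are raw counts of reads per APS, not normalized, for sites with at least 16 reads over the 8 libraries. Between 15.3% and 17.9% of the reads of a library lay at APSs with no gene, which were left out, as were the libraries of the other model; 0 sample columns lacked a mapping.

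Counts were summed per gene symbol, both strands, with scaffold copies added. KO and WT were compared with edgeR 4.0.16 (R 4.3.3, limma 3.58.1): at least 16 reads over the 4 libraries, TMM factors, a quasi-likelihood test of genotype with the robust option, Benjamini-Hochberg adjusted p under 0.1. SEs are approximate (the log2 fold change over the root of F), and the biological coefficient of variation was 26.2%. DESeq2 1.42.0 and limma-voom were alternatives, with other scalings, filters, site sets, thresholds, a replicate block and each library left out. The code was tested on simulated data. Folds against a group at 0 use 3 reads per library; ratios against 1 to 3 reads have exact 95% binomial intervals. Both describe counting error alone, since PCR duplicates could not be removed and several reads may stem from 1 molecule. Locations, transcripts and the 2000 bases downstream follow GENCODE vM21. The edgeR p-values set the genotype difference against a variance between 2 mice per group that was moderated across all tested genes.

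The text names Prkaa2 and Prkaa1, in each direction the 12 genes of lowest p, every called member of a list, and up to 4 members of lowest p per list; other genes were named after their values were seen. The members, the 37 gene lists, the 13 marker lists and the 3 lists added later were chosen with earlier results of these data known. A few genes that this rule names are not reported here.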

Additional observations from a re-analysis of the deposited data

How the results depend on the processing

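The number of genes called (27 higher, 24 lower) moved by more than 1.5 times in several settings. Higher and lower calls numbered 70 and 91 with library totals alone, which moved the median of all genes to -0.19 on the log2 scale, 54 and 20 with DESeq2, 31 and 13 with limma-voom, 15 and 16 without the robust option, 246 and 130 with no filter on low counts, and 33 and 9 with at least 10 reads in every library. At an adjusted p under 0.05 there were 14 higher and 12 lower calls. Leaving out each library in turn gave between 4 and 59 higher and between 9 and 38 lower calls. The replicate block gave 37 and 35 calls, 45 of them among the 51; KO and WT mice share only a number, and the correlation of same-numbered deviations was -0.005. Log2 fold changes that changed sign were those of Prkaa2 (between -0.14 and 0.075 with each library left out, 0.041 without KO 1, 0.013 with sense reads of protein coding genes) and Prkca (-0.54 with sense sites, -0.52 with sense reads of protein coding genes). Across the alternatives, called genes kept their call 582 times and lost it 176 times, and other named genes gained a call 56 times. Under every setting, 2 genes were called. Left out were 18 values for which DESeq2 gave no adjusted p. List medians moved by more than the spread between replicates in 149 of 736 cases; the pan-leukocyte median became 0.12 with at least 10 reads in every library, a filter that left 1 of its genes. The causes were not tested. Precision is limited by 2 mice per group and by counts of between 2552761 and 3549156 reads a library.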
